A study of Mus musculus with 12 samples.

Results

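The insulin-like growth factor (IGF) and growth hormone axis of the liver is described here by 10 genes: *Igf1*, *Igfals*, *Igfbp1*, *Igfbp2*, *Igfbp3*, *Igfbp4*, *Ghr*, *Stat5a*, *Stat5b* and *Socs2*. They were chosen as genes of the IGF system and of growth hormone signalling, by a rule that uses no measured value, though with earlier results of these data known. All 10 were found by symbol among the 54838 gene identifiers of the count table. C57BL/6J mice drank plain water or a solution of 25 mM ZnSO4 over 7 days and were then injected with 200 µg dexamethasone (Dex, a synthetic glucocorticoid) or with PBS. The liver was taken 2 h later for RNA sequencing. The 4 groups of 3 mice are called water-PBS (the control), zinc-PBS, water-Dex and zinc-Dex. No group carries a transgene or a deletion, and every mouse had an injection. The study's methods give an age of 8 to 14 weeks and female mice for this strain. The design asks how Dex acts on the liver after plain or zinc water, and how zinc acts with and without Dex.

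Growth hormone from the pituitary binds its receptor on hepatocytes, which activates the kinase Jak2 and the transcription factors Stat5a and Stat5b. Stat5b is the main form in liver and drives *Igf1*, *Igfals* and *Socs2*, and the Socs2 protein in turn limits the receptor. The liver is the main source of circulating IGF-1, most of which travels in a complex with IGF binding protein 3 and the acid labile subunit encoded by *Igfals*. The other binding proteins hold IGFs in smaller complexes. IGF binding protein 1 differs from the rest in that its hepatic transcript turns over fast, is repressed by insulin, and is induced by fasting and glucocorticoids.

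The libraries held 9091152 to 12303527 counts each, and each member had at least 64 counts in every library, so all 10 passed the filter on low counts. The defining markers of hepatocytes were all detected (8 of 8, *Alb* among them). Those of sinusoidal endothelium (8 of 8), Kupffer cells (6 of 6) and stellate cells (6 of 6) were detected too. Of 5 markers of the neighbouring pancreas, 3 were at 0 and *Ctrb1* was detected in zinc-Dex 1 alone, while *Cela1* had 61.9 to 134 normalized counts. The library zinc-PBS 1 stood apart by its acute phase genes, whose summed level was 8452 normalized counts there, against 735 to 3925 in the other 11 libraries. Values below are read counts divided by the library's size factor (normalized counts), unless given per kilobase of exon. In whole liver, fewer cells of a type and less RNA per cell cannot be told apart.

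Set per kilobase of exon, so that genes can be compared with each other, the most abundant members in water-PBS livers were *Igfbp2*, at 2838 ± 706 normalized counts per kilobase, and *Igfbp4*, at 2546 ± 105 (SD, n = 3). Their libraries overlapped. *Igf1* followed at 873 ± 144, *Igfbp1* at 641 ± 613 and *Ghr* at 600 ± 31.8, and neighbours in this order overlapped as well. Below them stood *Igfals* at 462 ± 50.7, then *Stat5b* at 177 ± 9.19, each with all its libraries below those of the gene above. *Igfbp3* (104 ± 17.7) and *Socs2* (79.4 ± 44.1) overlapped, and *Stat5a* was last at 25.6 ± 4.00. In zinc-PBS livers *Igfbp4* and *Igfbp2* again overlapped at the top, and *Igfbp1* lay sixth, at 363 ± 246. In both Dex groups *Igfbp1* was first, at 7672 ± 2155 per kilobase in water-Dex and 10306 ± 2729 in zinc-Dex, with every library above those of *Igfbp2*. With the length of the longest transcript in place of all exons, *Ghr* stood above *Igf1* in every group, and above *Igfbp1* in water-PBS. *Socs2* then stood above *Igfbp3* in both PBS groups and above *Stat5b* in zinc-PBS, and *Igfbp2* stood above *Igfbp4* in zinc-PBS. The order of these pairs therefore depends on the length used.

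**Figure D1:**
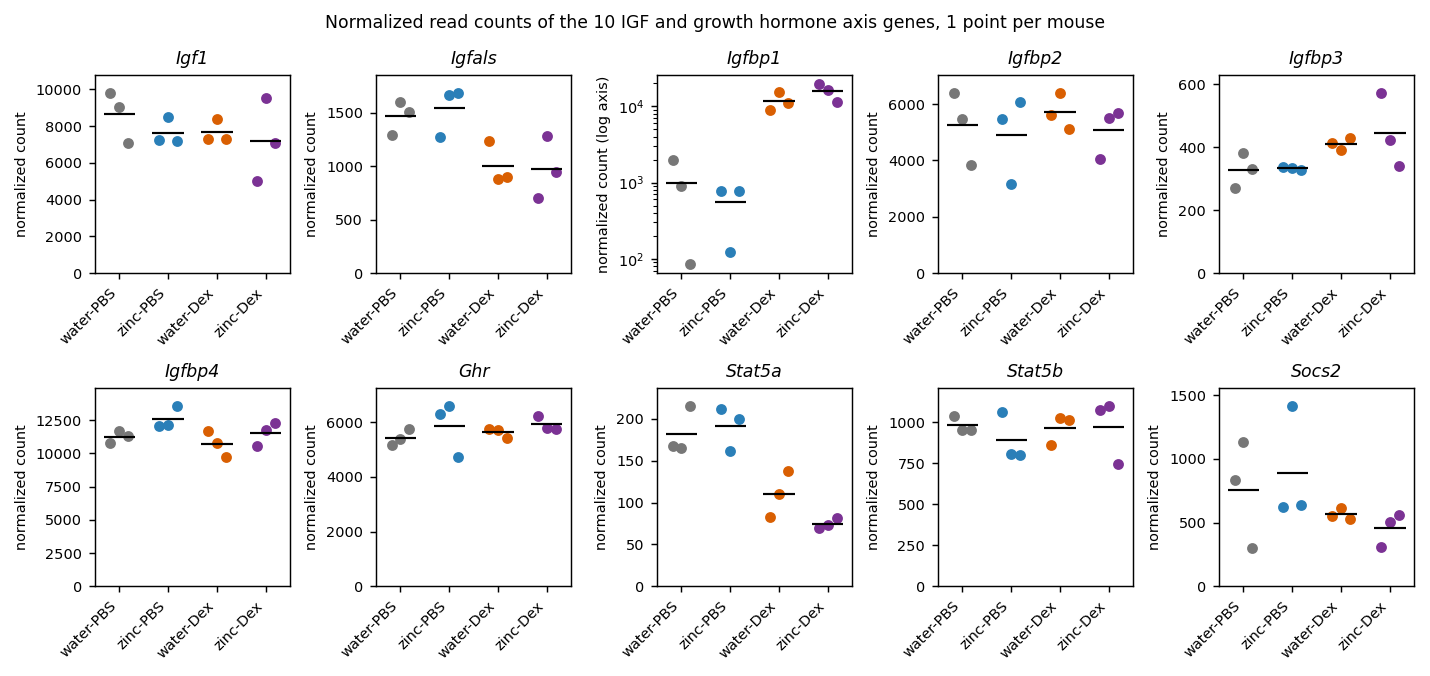
Normalized counts of the 10 genes in each group, 1 point per mouse in replicate order and a bar at the group mean. All axes start at 0 except that of *Igfbp1*, which is a log axis. Its 6 Dex livers sit between 8868 and 19720, above all 6 PBS livers.

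Dex against PBS was the contrast in which members passed the test (DESeq2, Wald test, Benjamini-Hochberg adjusted p under 0.05). After plain water, 1 of 10 rose (*Igfbp1*) and 2 fell (*Igfals* and *Stat5a*), where 21.6% of the genes tested passed in either direction, 11.7% higher and 9.91% lower. After zinc water the count was again 1 higher and 2 lower, with these same genes, against 20.1% of the genes tested (11% higher and 9.08% lower). In zinc-Dex against water-PBS, 2 rose (*Igfbp1* and *Igfbp3*) and 2 fell (*Igfals* and *Stat5a*), against 24.4% (13.2% higher and 11.2% lower). A log2 fold change above 0.8 in size as well was reached by 1 member (*Igfbp1*) in water-Dex against water-PBS, beside 9.68% of the genes tested, and by 2 (*Igfbp1* and *Stat5a*) in zinc-Dex against water-PBS, beside 11.2%. The libraries of the 2 groups did not overlap for 4 members in each of these 3 comparisons, beside 39% of the genes tested after plain water, 38.1% after zinc water and 39.9% for zinc-Dex against water-PBS. The shares of members that passed lie near the background in each comparison. The median absolute log2 fold change of the members was 0.25 after plain water, beside 0.25 over all genes tested, and 0.27 after zinc water, beside 0.27. The calls came from 4 genes, and the other 6 passed in none of the comparisons.

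**Figure D2:**
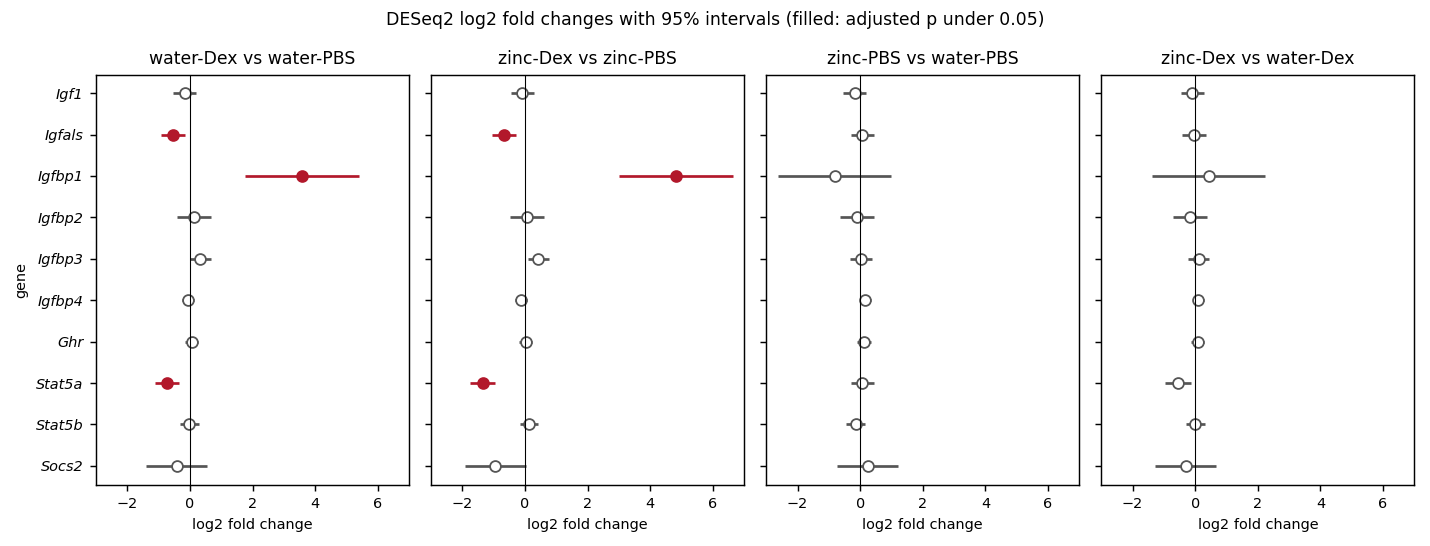
DESeq2 log2 fold changes of the 10 genes in 4 comparisons, with 95% intervals as lines and filled points where the adjusted p was under 0.05. The interval of *Igfbp1* runs from 1.77 to 5.39 after plain water and from 3.01 to 6.64 after zinc water, and the intervals in the 2 zinc comparisons hold 0 for all genes but *Stat5a* with Dex.

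*Igfbp1* encodes the fast-turning, insulin-repressed binding protein. It lies on chromosome 11 (7197782 to 7202546 of GRCm38, plus strand, ENSMUSG00000020429). The stretch before its start is shown because it carries the only match among the members to the core of an insulin response element (CAAAACA, either strand, in capitals), 108 bases before the RefSeq start. Of all 32851 RefSeq promoter windows of 300 bases, 6.28% hold these letters. The stretch is chr11:7197537-7197781 of GRCm38.p6, plus strand.
Igfbp1: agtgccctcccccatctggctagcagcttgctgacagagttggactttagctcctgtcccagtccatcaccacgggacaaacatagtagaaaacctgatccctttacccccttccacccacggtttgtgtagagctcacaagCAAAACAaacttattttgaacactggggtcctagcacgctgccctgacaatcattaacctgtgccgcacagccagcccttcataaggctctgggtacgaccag

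*Igfbp1* had 1949, 896 and 85.7 normalized counts in the water-PBS livers and 8868, 15305 and 10928 in the water-Dex livers. Zinc-PBS livers held 764, 122 and 778, and zinc-Dex livers 19720, 16016 and 11412. Every Dex liver was far above every PBS liver, and the PBS livers differed among themselves by up to 22.8 times within water-PBS and 6.40 times within zinc-PBS. The ratio of group means was 12.0 after plain water, with a log2 fold change of 3.58 (SE 0.92, DESeq2 adjusted p 0.00101). After zinc water it was 28.4, with a log2 fold change of 4.83 (SE 0.92, adjusted p 2.94e-06). The difference between these 2 effects, tested as the interaction of zinc and Dex, was 1.24 on the log2 scale (95% interval -1.32 to 3.81, unadjusted p 0.341), so the data do not show that zinc water enlarged the response. Both calls held in all 13 alternatives, with log2 fold changes of 3.04 to 4.57 and 4.35 to 5.15.

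The PBS livers with the lowest *Igfbp1* were also low in *Irs2*, which encodes an insulin receptor substrate whose hepatic transcript insulin represses. *Irs2* had 547, 202 and 112 normalized counts in water-PBS and 407, 178 and 397 in zinc-PBS. Liver for liver, the order of *Irs2* within each group of PBS mice was that of *Igfbp1* except for the near-equal zinc-PBS 1 and 3. Over the 12 livers, *Igfbp1* and *Irs2* had a Pearson r of -0.138 on log2(normalized count + 1), and of 0.917 after removing group means. These values describe livers whose 2 levels come from the same library. The liver lowest in *Igfbp1*, water-PBS 3, had the highest level of 2 genes induced by feeding, *Angptl8* at 1849 (439 to 678 in the other PBS livers) and *Srebf1* at 2584 (1265 to 1618). The summed level of 4 fasting genes was 2012 to 3948 in water-PBS and 724 to 1265 in zinc-PBS. Most of this sum was *G6pc*, at 1747 to 3250 and 538 to 999, while *Ppargc1a*, *Pdk4* and *Asns* overlapped between these groups. Feeding of single mice is not in the labels, and its part in the *Igfbp1* levels was not tested. Under Dex, *Irs2* had 176, 265 and 179 after plain water and 163, 149 and 92.3 after zinc water, and it passed in none of the comparisons.

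The make-up of the binding protein transcripts differed with the level of *Igfbp1*. Of the summed level per kilobase of *Igfbp1* to *Igfbp4*, it made up 9.35% ± 8.21 in water-PBS and 5.65% ± 3.43 in zinc-PBS (SD, n = 3). In the Dex groups its share was 56.9% ± 6.33 after plain water and 64.4% ± 8.72 after zinc water, and the lowest Dex liver (49.99%) was above the highest PBS liver (17.6%). The summed level itself was 6129 ± 1250 per kilobase in water-PBS, 5977 ± 1200 in zinc-PBS, 13331 ± 2403 in water-Dex and 15807 ± 2160 in zinc-Dex. The share of *Igfbp4* went from 42.9% ± 9.94 in water-PBS to 18.6% ± 3.78 in water-Dex while its own level overlapped between these groups. With the longest transcript as length, the *Igfbp1* share in water-Dex was 50.5%.

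**Figure D3:**
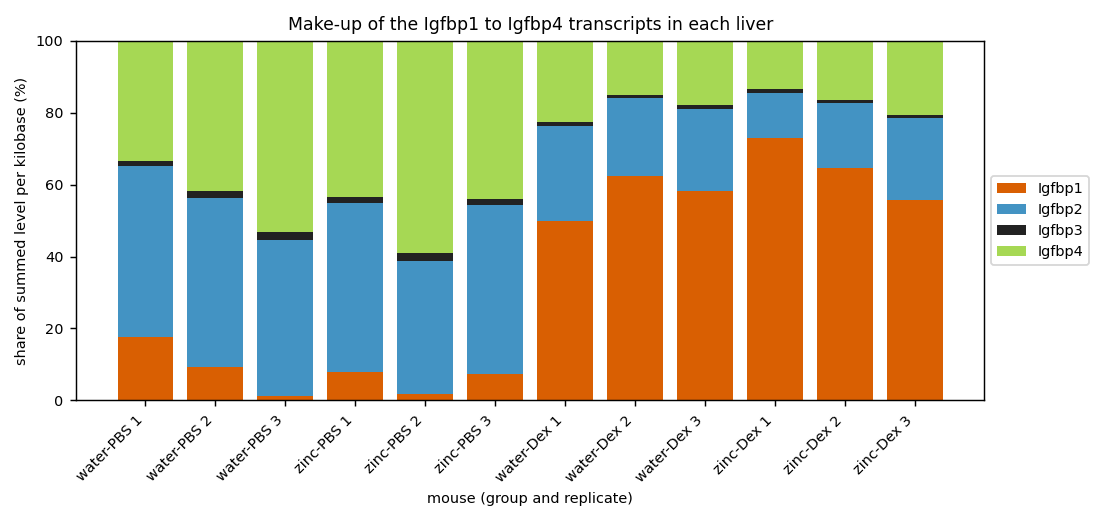
Share of each of 4 IGF binding proteins in their summed level per kilobase of exon, 1 stacked bar per mouse. *Igfbp1* takes 1.17% to 17.6% in the PBS livers and 49.99% to 73.1% in the Dex livers.

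*Igfals* encodes the acid labile subunit, which stabilizes the large circulating IGF complex. It lies on chromosome 17 (24865997 to 24882010, plus strand, ENSMUSG00000046070). Of its 3 RefSeq promoter windows, 2 hold a match to a Stat5 site (TTCNNNGAA, which reads the same on both strands), and no window of the other members with an entry does. Among all windows 8.30% hold one. The nearer match is shown, in capitals, 58 bases before the RefSeq start of its window, in chr17:24877981-24878214 of GRCm38.p6, plus strand. This stretch lies inside the gene span given above, not before its first base.
Igfals: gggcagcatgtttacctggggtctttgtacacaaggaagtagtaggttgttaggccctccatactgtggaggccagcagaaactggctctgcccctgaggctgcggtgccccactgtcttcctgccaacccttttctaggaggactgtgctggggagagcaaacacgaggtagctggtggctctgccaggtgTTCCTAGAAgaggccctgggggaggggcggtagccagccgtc

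The full glucocorticoid response element, searched as the half-sites GNACA and TGTNC with 3 free bases between them (a pattern that reads the same on both strands), was in 0 of the 15 windows of the members, against 0.475% of all windows. Its half-site AGAACA, on either strand, was in 2 of 15 (*Igfbp2* and *Igfals*), against 19.0% of all. These matches are letters in a short window and do not show binding.

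*Igfals* had 1289, 1603 and 1502 normalized counts in water-PBS and 1234, 875 and 901 in water-Dex. All 3 water-Dex livers were below the controls, although water-Dex 1 came close to water-PBS 1. The log2 fold change was -0.55 (SE 0.20, DESeq2 adjusted p 0.0280). It did not pass in 5 of 13 alternatives, among them leaving out water-PBS 2 or 3 or water-Dex 2 or 3, with adjusted p up to 0.157.

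After zinc water, *Igfals* had 1273, 1668 and 1687 with PBS and 706, 1276 and 943 with Dex. Zinc-Dex 2 and zinc-PBS 1 were almost equal, so these groups overlapped. The log2 fold change was -0.66 (SE 0.20, DESeq2 adjusted p 0.00545), and without zinc-Dex 1 it was -0.48 with an adjusted p of 0.0539. Against water-PBS, zinc-Dex gave -0.59 (adjusted p 0.0144), a call that was lost without water-PBS 2, zinc-Dex 1 or zinc-Dex 3, at adjusted p up to 0.114.

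*Igfbp3*, the main carrier of circulating IGF-1, is made in liver mostly by cells other than hepatocytes. Its gene (chromosome 11, 7206086 to 7213923, minus strand) is the neighbour of *Igfbp1*, and the ends of the 2 genes are 3539 bp apart. It had 270, 380 and 329 normalized counts in water-PBS, 337, 335 and 327 in zinc-PBS and 413, 390 and 428 in water-Dex. Zinc-Dex livers had 573, 422 and 339. Each water-Dex liver was above each control, by a small margin. The log2 fold change was 0.33 (SE 0.17, DESeq2 adjusted p 0.179) after plain water and 0.42 (SE 0.17, adjusted p 0.0696) after zinc water, and neither passed. After zinc water it passed without zinc-Dex 3, at 0.58 and an adjusted p of 0.00395.

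Zinc-Dex against water-PBS gave 0.44 for *Igfbp3* (SE 0.17, DESeq2 adjusted p 0.0441), which passed, while the groups overlapped. The call was lost in 8 of 13 alternatives, including edgeR at an adjusted p of 0.0511 and leaving out water-PBS 1 or 3 or zinc-Dex 2. Without zinc-Dex 1 the value was 0.22, with an adjusted p of 0.367. Markers of sinusoidal endothelium summed to 4659 to 5094 normalized counts in water-PBS, 4788 to 5056 in zinc-PBS, 4847 to 5459 in water-Dex and 5161 to 5394 in zinc-Dex. Of these 8 markers, 1 rose (*Lyve1*) and 2 fell (*Kdr* among them) in each Dex comparison. Stellate cell markers summed to 5397 to 5566, 5082 to 5131, 5974 to 6027 and 5843 to 6972 in the same order. Of these 6 markers, 1 rose (*Ecm1*) and 1 fell (*Lrat*) under Dex after plain water. After zinc water 3 rose and 0 fell. The part of both cell types in the *Igfbp3* values was not tested.

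*Igfbp2* and *Igfbp4* encode the binding proteins with the most abundant transcripts of control liver. *Igfbp2* had 6406, 5488 and 3834 normalized counts in water-PBS, 5467, 3171 and 6072 in zinc-PBS and 5624, 6411 and 5110 in water-Dex. In zinc-Dex livers the counts were 4057, 5495 and 5688. The 4 groups overlapped throughout, and the Dex effect after plain water was 0.12 on the log2 scale (95% interval -0.42 to 0.67). *Igfbp4* had 10758, 11684 and 11281 in water-PBS and 11658, 10812 and 9758 in water-Dex, with an interval of -0.24 to 0.11. In zinc-PBS it had 12095, 12118 and 13582, all above the controls, with a log2 fold change of 0.16 (SE 0.09, DESeq2 unadjusted p 0.0703, adjusted p 0.915). Zinc-Dex livers had 10533, 11744 and 12277. *Igfbp4* was the only member whose zinc-PBS and water-PBS libraries did not overlap, where 11.9% of the genes tested did not.

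*Igf1*, the growth factor itself (chromosome 10, 87858265 to 87937042, plus strand), had 9822, 9043 and 7065 normalized counts in water-PBS and 7233, 8494 and 7175 in zinc-PBS. Water-Dex livers had 7287, 8404 and 7319, and zinc-Dex livers 5001, 9549 and 7079. The groups overlapped, and zinc-Dex held both the lowest and the second highest liver of all. Dex gave a log2 fold change of -0.17 after plain water (95% interval -0.54 to 0.19) and -0.08 after zinc water (-0.45 to 0.28). Zinc-Dex against water-PBS gave -0.26 (DESeq2 adjusted p 0.342), and -0.52 with an adjusted p of 0.0106 when zinc-Dex 2 was left out. Changes of *Igf1* smaller than these intervals were not detectable with 3 mice a group.

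*Ghr* encodes the growth hormone receptor. It had 5170, 5395 and 5742 normalized counts in water-PBS, 6296, 6598 and 4736 in zinc-PBS and 5761, 5700 and 5419 in water-Dex. The zinc-Dex livers held 6235, 5802 and 5760, just above all controls. The Dex effect was 0.05 (95% interval -0.17 to 0.27) after plain water and 0.01 (-0.21 to 0.23) after zinc water. *Stat5b*, the main Stat5 form of liver, had 1040, 952 and 951 in water-PBS and 859, 1023 and 1015 in water-Dex. Zinc-PBS livers had 1060, 809 and 803, and zinc-Dex livers 1074, 1100 and 744. The groups overlapped, with a Dex effect of -0.02 (-0.32 to 0.28) after plain water and 0.13 (-0.18 to 0.43) after zinc water.

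*Stat5a*, the second Stat5 gene, lies 8626 bp from *Stat5b* on chromosome 11 (100859351 to 100885169, plus strand) and was the member with the clearest fall. It had 167, 165 and 215 normalized counts in water-PBS and 83.3, 111 and 138 in water-Dex. Zinc-PBS livers had 211, 162 and 199, and zinc-Dex livers 69.5, 73.3 and 81.7. Every Dex liver was below every PBS liver, and every zinc-Dex liver was below every water-Dex liver. The log2 fold change was -0.72 (SE 0.20, DESeq2 adjusted p 0.00200) after plain water and -1.35 (SE 0.20, adjusted p 7.70e-10) after zinc water, and both passed in all 13 alternatives.

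Zinc-Dex against water-Dex gave -0.56 for *Stat5a* (SE 0.21, DESeq2 unadjusted p 0.00760), which did not pass after adjustment (adjusted p 0.211). The interaction was -0.63 (SE 0.28, unadjusted p 0.0258, adjusted p 0.999), so a larger fall after zinc water was not shown. *Stat5a* shares 72 bases of exon with *Stat3* on the opposite strand, and the strand setting of the counting is not given in the sources used here, so its level is uncertain. *Stat3* itself had 1169 to 1424 in water-PBS, 1160 to 1652 in zinc-PBS and 1347 to 1395 in water-Dex. In zinc-Dex it had 1503 to 1680, above every control and every water-Dex liver, and it passed in none of the comparisons. Lymphocytes also express *Stat5a*: 5 lymphocyte markers summed to 30.0 to 34.7 normalized counts in water-PBS, 23.6 to 46.9 in zinc-PBS, 8.51 to 10.9 in water-Dex and 12.5 to 18.5 in zinc-Dex. Of these, 2 of 5 passed as lower in water-Dex against water-PBS and 0 of 5 in zinc-Dex against zinc-PBS. Their part in the *Stat5a* values was not tested.

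*Socs2*, a target of Stat5 that limits the receptor, varied most among PBS livers after *Igfbp1*. It had 834, 1133 and 303 normalized counts in water-PBS, 626, 1415 and 635 in zinc-PBS and 554, 616 and 528 in water-Dex. Among zinc-Dex livers it had 313, 507 and 560. After plain water the controls spanned the range of the Dex livers, while all zinc-Dex livers were below all zinc-PBS livers. The log2 fold change was -0.42 (SE 0.50, DESeq2 adjusted p 0.632) after plain water and -0.96 (SE 0.50, adjusted p 0.183) after zinc water, and neither passed. Zinc-Dex against water-PBS gave -0.72 (adjusted p 0.325), and -1.096 with an adjusted p of 0.0491 without water-PBS 3, the lowest control.

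**Figure D4:**
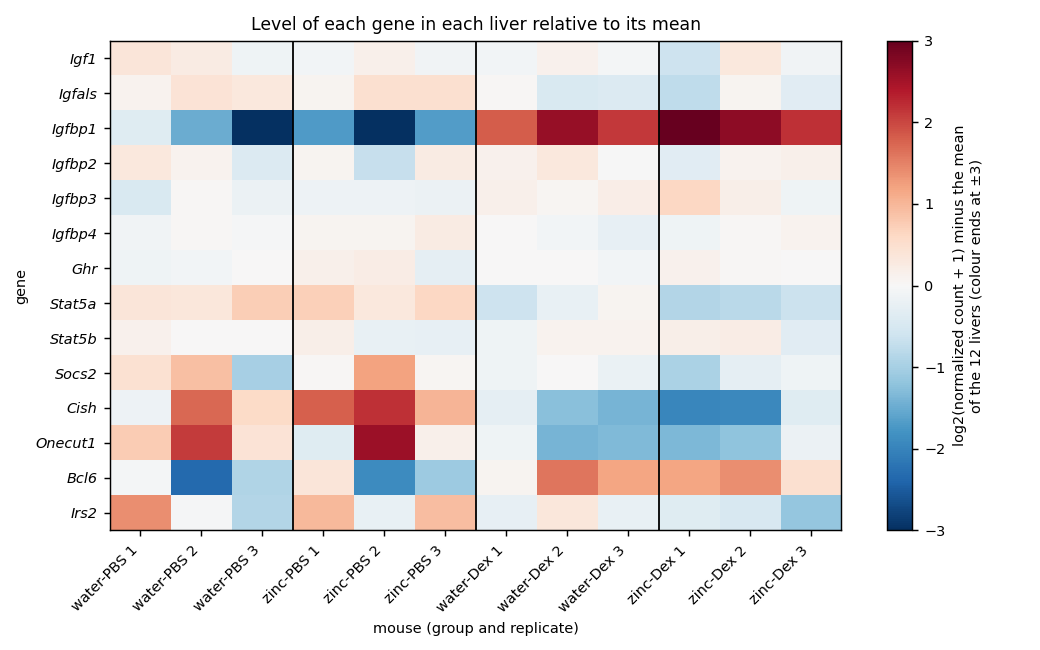
log2(normalized count + 1) of the 10 genes and 4 genes of the wider pathway in each mouse, minus the gene's mean over the 12 livers, in colour ending at -3 and 3. *Igfbp1* splits the PBS from the Dex livers, whereas *Onecut1* and *Bcl6* run opposite to each other across single livers.

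Zinc alone moved no member past the test. In zinc-PBS against water-PBS, 0 of 10 passed with DESeq2 and 0 with edgeR, with 0 at an unadjusted p under 0.05, where 0.341% of the genes tested passed. In zinc-Dex against water-Dex, 0 of 10 passed with either tool, with *Stat5a* the 1 member at an unadjusted p under 0.05, against 1.35% of the genes tested. For the interaction, 0 of 10 passed with either tool, again with *Stat5a* alone under an unadjusted 0.05, against 0.0229%. *Stat5a* was also the only member whose zinc-Dex and water-Dex libraries did not overlap, where 20% of the genes tested did not. The intervals of the zinc effect with PBS were narrow for *Igfbp4* (-0.01 to 0.34) and *Ghr* (-0.11 to 0.33), and wide for *Igfbp1* (-2.63 to 0.99) and *Socs2* (-0.74 to 1.21). For the latter pair even large changes were not detectable with these mice.

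The wider pathway was followed in a list of 26 further genes. The list was chosen with earlier results of these data known, so its shares and medians describe these genes only. In water-Dex against water-PBS 20 of them had counts enough for an adjusted p, of which 3 rose and 5 fell, beside 21.6% of all genes tested that passed. In zinc-Dex against zinc-PBS 1 rose and 6 fell of 21, beside 20.1%, and in zinc-Dex against water-PBS 4 rose and 5 fell of 20, beside 24.4%. Over the list genes with an adjusted p, the median absolute log2 fold change was 0.52, 0.54 and 0.62 in these comparisons, beside 0.25, 0.27 and 0.26 over all genes tested. In the zinc comparisons and the interaction 0 passed with DESeq2 or edgeR, with 1, 3 and 1 at an unadjusted p under 0.05. *Igf2*, *Igf2bp1* and *Pappa2* had at most 3 counts in every library, as did *Pappa* and *Igf2bp3* in 3 of the 4 groups. *Igf2* is a growth factor of fetal liver, *Igf2bp1* and *Igf2bp3* bind its RNA, and *Pappa* and *Pappa2* encode proteases that cut IGF binding proteins.

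**Figure D5:**
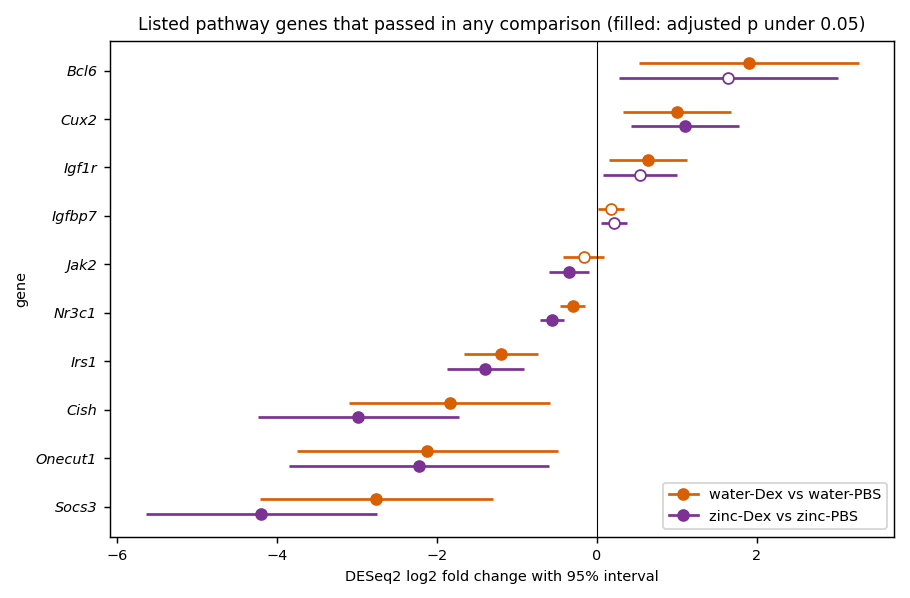
DESeq2 log2 fold changes, with 95% intervals as lines, of the 10 listed pathway genes that passed in any comparison, after plain water and after zinc water. Filled points had an adjusted p under 0.05, and *Socs3* has the lowest values, -2.76 and -4.20.

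Of the listed feedback inhibitors of cytokine receptors, *Cish* and *Socs3* fell under Dex, whereas *Socs1*, with at most 11 counts in a library, passed in no comparison. *Cish*, a Stat5 target that dampens growth hormone signalling, had 74.6, 278 and 124 normalized counts in water-PBS and 68.0, 34.0 and 30.7 in water-Dex, with every Dex liver below every control (log2 fold change -1.84, SE 0.64, DESeq2 adjusted p 0.0223). The call was lost with the replicate block, and without water-PBS 2, water-Dex 2 or water-Dex 3, at adjusted p up to 0.235. After zinc water it had 292, 383 and 170 with PBS and 20.6, 21.1 and 64.4 with Dex, again with no overlap (-2.99, SE 0.64, adjusted p 4.40e-05), and passed in all 13 alternatives.

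*Socs3*, which restrains Jak kinases downstream of cytokines, had 110, 128 and 75.8 in water-PBS and 12.2, 22.3 and 11.9 in water-Dex. In zinc-PBS it had 701, 83.9 and 146, and in zinc-Dex 14.1, 22.2 and 14.4. The 701 belongs to zinc-PBS 1, the library with a high sum of acute phase genes, and *Socs3* is itself part of that sum. The log2 fold change was -2.76 (SE 0.74, DESeq2 adjusted p 0.00178) after plain water and -4.20 (SE 0.74, adjusted p 2.63e-07) after zinc water, and -2.77 (adjusted p 8.23e-12) after zinc water without zinc-PBS 1.

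Transcription factors tied to the sex-dependent pattern of growth hormone in liver moved in both directions. *Bcl6*, a repressor that competes with Stat5 on DNA, had 295, 60.1 and 164 normalized counts in water-PBS and 324, 924 and 690 in water-Dex (log2 fold change 1.90, SE 0.70, DESeq2 adjusted p 0.0341). Each Dex liver was above each control, though water-Dex 1 only narrowly, and the call was lost in 6 of 13 alternatives, among them leaving out water-PBS 2 or 3 or water-Dex 2 or 3. After zinc water it had 393, 81.3 and 142 with PBS and 692, 805 and 429 with Dex (1.64, adjusted p 0.0819), which did not pass.

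*Cux2*, a factor of female liver, had 259, 221 and 247 in water-PBS and 541, 327 and 591 in water-Dex (1.004, SE 0.35, DESeq2 adjusted p 0.0212), with no overlap. It had 262, 217 and 519 in zinc-PBS and 622, 705 and 809 in zinc-Dex (1.0998, SE 0.34, adjusted p 0.00970). These calls were lost in 4 and 2 of 13 alternatives, the first without any 1 of the controls or water-Dex 1 and the second without zinc-PBS 1 or zinc-Dex 3. *Onecut1*, a hepatocyte factor induced by growth hormone, had 111, 282 and 86.8 in water-PBS and 59.9, 24.5 and 25.7 in water-Dex (-2.13, SE 0.83, adjusted p 0.0497), and 50.5, 394 and 72.4 in zinc-PBS against 25.0, 27.8 and 57.7 in zinc-Dex (-2.23, SE 0.83, adjusted p 0.0398). The latter groups overlapped. Without water-PBS 2 and without zinc-PBS 2, the livers highest in *Onecut1*, the changes were -1.43 (adjusted p 0.331) and -0.74 (adjusted p 0.559). The calls were also lost without water-PBS 1 or 3 or water-Dex 2 or 3 after plain water, and without zinc-Dex 1 or 2 after zinc water. Both were lost with the replicate block and without independent filtering, and the second with only the 6 libraries compared.

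Across the 12 livers *Onecut1* and *Bcl6* had a Pearson r of -0.936 on log2(normalized count + 1), and of -0.851 after removing group means, as a description over libraries that also share their depth and processing. *Cish* and *Onecut1* had 0.828 and 0.720. Water-PBS 2 and zinc-PBS 2 were the livers highest in *Cish*, *Onecut1* and *Socs2* within their groups and lowest in *Bcl6*. *Socs2* and *Onecut1* had an r of 0.737, and 0.743 after removing group means, and *Igf1* and *Socs2* 0.651 and 0.684.

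Other listed genes that passed belong to IGF and insulin signalling or lie around it. *Igf1r*, the IGF-1 receptor, is low in liver and had 35.7, 30.9 and 35.1 normalized counts in water-PBS and 46.7, 51.1 and 60.4 in water-Dex (log2 fold change 0.64, SE 0.25, DESeq2 adjusted p 0.0459). The groups did not overlap, but the call held in only 4 of 13 alternatives. It was lost on leaving out any 1 of these 6 libraries, at adjusted p up to 0.223. After zinc water the change was 0.54 (adjusted p 0.0984). *Irs1*, an insulin receptor substrate, had 130, 110 and 163 in water-PBS and 58.9, 67.0 and 49.5 in water-Dex (-1.20, SE 0.24, adjusted p 7.07e-06), and fell by 1.40 on the log2 scale after zinc water (adjusted p 3.58e-07), in all 13 alternatives of both.

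*Nr3c1*, the glucocorticoid receptor, fell by 0.31 on the log2 scale after plain water (DESeq2 adjusted p 9.53e-04) and by 0.56 after zinc water (adjusted p 2.98e-11). *Jak2* fell by 0.35 after zinc water (adjusted p 0.0328), a call that held in 6 of 13 alternatives. It was lost without zinc-PBS 1 or 2 or zinc-Dex 2 or 3, among others. After plain water *Jak2* had -0.17 (adjusted p 0.408). *Igfbp7*, a binding protein with low affinity for IGFs, passed in zinc-Dex against water-PBS alone among the comparisons run (0.23, adjusted p 0.0284), and in 5 of 13 alternatives, not when any 1 of the controls, zinc-Dex 1 or zinc-Dex 3 was left out. *Igfbp7* shares exon bases with *Polr2b* on the opposite strand, so its level is uncertain.

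Genes outside the lists were ranked by how closely they followed 4 members over the 12 livers (Pearson r of log2(normalized count + 1), among genes averaging 50 normalized counts or more). Nearest to *Igfbp1* were *Acot1* (r = 0.984), *9530068E07Rik* (0.975) and *Alb* (0.972). *Igf1* was followed by *Crot* (0.863), *Gm16551* (0.850) and *Slc17a2* (0.845), and *Socs2* by *Ugcg* (0.910), *Cbfb* (0.810) and *Piezo1* (0.810). For *Ghr* the nearest were *Ntrk2* (0.935), *Rcbtb2* (0.883) and *Tspan12* (0.873). These values are the highest of many genes compared and describe these libraries only. *Alb* kept to a narrow range, 961037 to 1349830 normalized counts, while *Acot1* went from 136 to 1397.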

How the data were processed

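Liver RNA of 12 mice was sequenced from stranded libraries. Per the labels and the study's methods, reads were mapped to mouse mm10 with HISAT2 2.0.4, and the authors deposited raw read counts per Ensembl gene from featureCounts, without normalization. The annotation release and strand setting are not given in the sources used here. Depth was 9091152 to 12303527 counts per library. No column was left out.

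Counts were fitted with DESeq2 1.42.0 (R 4.3.3), which the study also used, in 1 fit of the whole table and 12 libraries with a coefficient per group, unshrunken log2 fold changes, Wald tests and Benjamini-Hochberg adjustment over all genes. "Passed" means an adjusted p under 0.05. edgeR 4.0.16 was an alternative. Each alternative changes 1 choice: TMM factors, filters, the replicate block, the 6 libraries compared, edgeR, or 1 library left out. Alternatives for the wider list were added after its values were seen. The exact permutation test of 3 against 3 cannot go below 0.1, so p-values rest on the spread shared over genes. The replicates were taken as separate mice, as the labels do not say more.

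The members and lists were chosen with earlier results of these data known. All members are named, the listed pathway genes that passed or lay at or under 3 counts per library, and the 3 genes nearest to each of 4 members. *Irs2*, *Stat3* and the marker genes were named after their values were seen. Lengths and coordinates came from GRCm38, and promoters from RefSeq (GRCm38.p6), where 9 of 10 members had an entry (15 windows), *Socs2* being without one. Scripts were tested on simulated data. Count precision covers sampling of reads only.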

Additional observations from a re-analysis of the deposited data

How the results depend on the processing

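Of the log2 fold changes of the members, 764 values under an alternative kept their direction and side of the threshold, 17 lost and 3 gained the call, and 46 changed sign, all of members that had not passed. The calls of *Igfbp1* and *Stat5a* under Dex held throughout, and those of *Igfals* and *Igfbp3* did not, as given above. The cause of these losses was not tested beyond the library left out. Asking for an absolute log2 fold change above 0.8 as well left 1 member in water-Dex against water-PBS and 2 in zinc-Dex against water-PBS. By adjusted p under 0.05 alone, 4 members passed in zinc-Dex against water-PBS. Leaving out 1 library at a time gave 2 to 4 by that criterion (2 without zinc-Dex 1). With the longest transcript, the *Igfbp1* share in water-Dex was 50.5%. In the pathway list, water-Dex against water-PBS had 5 calls with the replicate block, 5 without independent filtering, and 3 to 6 with 1 library left out, and zinc-Dex against water-PBS had 4 to 8.

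Signs turned when 1 library was left out, over these ranges on the log2 scale. For zinc-PBS against water-PBS they were -0.00994 to 0.195 (*Igfals*), -1.36 to 0.17 (*Igfbp1*), -0.28 to 0.14 (*Igfbp2*), -0.0949 to 0.152 (*Igfbp3*), -0.0134 to 0.201 (*Stat5a*) and -0.26 to 0.65 (*Socs2*). For water-Dex against water-PBS they were -0.0566 to 0.293 (*Igfbp2*), -0.13 to 0.00046 (*Igfbp4*) and -0.0651 to 0.0564 (*Stat5b*). For zinc-Dex against water-PBS they were -0.23 to 0.12 (*Igfbp2*), -0.0114 to 0.0981 (*Igfbp4*) and -0.11 to 0.15 (*Stat5b*). For zinc-Dex against water-Dex they were -0.35 to 0.12 (*Igf1*), -0.28 to 0.14 (*Igfals*), -0.11 to 0.28 (*Igfbp3*) and -0.0887 to 0.172 (*Stat5b*). For zinc-Dex against zinc-PBS they were -0.34 to 0.12 (*Igf1*), -0.18 to 0.23 (*Igfbp2*) and -0.12 to 0.10 (*Ghr*). For the interaction they were -0.17 to 0.29 (*Igf1*), -0.358 to 0.0682 (*Igfals*), -0.31 to 0.11 (*Igfbp2*), -0.14 to 0.25 (*Igfbp3*) and -0.170 to 0.0541 (*Ghr*).

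Libraries with the same replicate number had an r of deviations of -0.204 to 0.191, against -0.245 to 0.284 for different numbers. Of 12 libraries, 2 correlated best with their own number. No pairing by number was seen, but groups of 3 mice cannot exclude one. With the replicate block, 3 members passed in water-Dex against water-PBS, 3 in zinc-Dex against zinc-PBS and 3 in zinc-Dex against water-PBS, where *Igfbp3* had an adjusted p of 0.0757, and *Stat5b* in zinc-Dex against water-Dex was -0.00766. Groups of 3 mice limit what can be seen for *Igfbp1* and *Socs2*, whose PBS livers differed widely.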
